A study of Mus musculus with 14 samples.

Results

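Type I interferon response genes are genes that cells switch on when type I interferon binds its receptor. A named set of 39 such genes was followed through 14 RNA-seq libraries of mouse CD8+ T cells from tumors. Members were found by gene symbol in the count tables of 3 experiments: 37 were analysed in each, and Mx1 and Mx2 were not analysed here. The tables listed 15319, 19825 and 15216 genes for the TIL, Prdm1 and Bcl6 experiments. Genes averaging 1 FPKM or more over an experiment's libraries were tested (FPKM counts fragments per kilobase, scaled to library size). By this filter 34 members stood among 9748 tested genes in the TIL experiment, 37 among 9947 in the Prdm1 experiment and 34 among 9669 in the Bcl6 experiment.

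All cells came from mice bearing E.G7, an ovalbumin-expressing derivative of the EL4 lymphoma line, and every group had 2 libraries. The TIL experiment held tumor-infiltrating CD8+ lymphocytes (TILs) taken 21 days after subcutaneous inoculation of Bcl6-RFP mice and sorted as DN, Bcl6+ and TIM-3+ cells. The labels do not spell out DN. The OT-I experiments held CD8+ T cells whose transgenic antigen receptor recognises ovalbumin, transferred together and recovered from tumors about 8 days later: Prdm1-overexpressing cells and their Prdm1neg controls, and Bcl6-overexpressing cells and their Bcl6neg controls. The labels name neither the vector of the control cells nor the animals behind a replicate number, so p-values measure only the spread between these samples.

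Total counts per library ranged from 18309162 to 22322079. Levels are CPM, read counts scaled to library size and by TMM, and the values of a group are those of replicates 1 and 2, in that order. Changes are log2 fold changes from edgeR with their standard error (SE), called at a Benjamini-Hochberg adjusted p of 0.05 over all genes tested. The genes that name the groups were checked first. Bcl6 averaged 92.2 CPM in DN, 416 CPM in Bcl6+ and 16.4 CPM in TIM-3+ TILs, and 80.3 CPM in Bcl6-overexpressing against 3.95 CPM in control OT-I cells (adjusted p = 2e-11). Prdm1 averaged 174 CPM in Prdm1-overexpressing and 99.2 CPM in control OT-I cells, a difference that did not pass the test (log2 fold change 0.81, adjusted p = 0.092). The CD8 T cell markers Cd3e, Cd3d, Cd3g, Cd8a, Cd8b1, Cd2 and Lck summed to between 4978 and 9634 CPM over the libraries. These are bulk samples, in which fewer cells of a type and less RNA per cell cannot be told apart.

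The receptor of type I interferon, IFNAR1 with IFNAR2, signals through the kinases JAK1 and TYK2 to transcription factors that include STAT2. STAT2 joins IRF9 in a complex that binds the interferon-stimulated response element (ISRE) upstream of the response genes. The products sense viral RNA, block viral replication or damp the signal itself. In CD8+ T cells of tumors and chronic infections the response is known to accompany both activation and exhaustion. BCL6 and Blimp-1, the product of Prdm1, are repressors that oppose each other in lymphocytes, and Blimp-1 recognises letters that resemble an ISRE.

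The ISRE was therefore looked up in the promoters of the members. RefSeq promoter sequences of build GRCm38.p6, from 250 bases before to 50 bases after a gene's start, were matched for 29 of the 39 members. The ISRE core, searched on both strands as GAAA, any 2 bases and GAAA again, was present for 15 of these 29 genes (51.7%), against 1079 of 27025 genes with a promoter in the table (3.99%). The Blimp-1-like form, the ISRE core with GT as its middle bases, was present for 2 of the 29 members, Ifit1 and Ifit3, and for 0.303% of all genes. The palindrome TTCNNNGAA, bound by STAT dimers, was present for 6 of the 29 members (20.7%) and 9.55% of all genes, and in Bst2 it overlapped the first ISRE core. A match describes letters and not binding.

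Upstream bases are shown for members on which the results below turn: Ifit1, Ifit3, Oas3 and Bst2 were highest in DN TILs, and Bst2 and Isg15 changed most among members in Bcl6-overexpressing cells. Each sequence is read 5′ to 3′ toward the gene's start, and capitals mark ISRE cores on either strand, overlapping cores running together. They lie at chr19:34640639-34640888 on the plus strand (Ifit1), chr19:34583279-34583528 on the plus strand (Ifit3), chr5:120777660-120777909 on the minus strand (Oas3), chr8:71537473-71537722 on the minus strand (Bst2) and chr4:156200819-156201068 on the minus strand (Isg15).
Ifit1: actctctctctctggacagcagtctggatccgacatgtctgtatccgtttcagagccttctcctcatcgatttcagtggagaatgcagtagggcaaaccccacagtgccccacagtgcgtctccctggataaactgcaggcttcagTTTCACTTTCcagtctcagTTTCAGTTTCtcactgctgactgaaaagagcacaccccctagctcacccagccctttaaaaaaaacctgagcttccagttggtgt
Ifit3: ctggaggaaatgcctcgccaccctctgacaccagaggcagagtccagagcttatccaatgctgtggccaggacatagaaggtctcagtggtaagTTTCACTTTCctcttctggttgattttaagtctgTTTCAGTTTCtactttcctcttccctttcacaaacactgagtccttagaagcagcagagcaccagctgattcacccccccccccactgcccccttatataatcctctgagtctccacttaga
Oas3: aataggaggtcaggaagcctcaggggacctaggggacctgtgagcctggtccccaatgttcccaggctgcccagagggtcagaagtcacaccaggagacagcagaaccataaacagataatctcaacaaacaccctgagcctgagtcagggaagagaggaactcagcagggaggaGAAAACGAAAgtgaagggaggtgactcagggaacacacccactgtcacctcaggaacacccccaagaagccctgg
Bst2: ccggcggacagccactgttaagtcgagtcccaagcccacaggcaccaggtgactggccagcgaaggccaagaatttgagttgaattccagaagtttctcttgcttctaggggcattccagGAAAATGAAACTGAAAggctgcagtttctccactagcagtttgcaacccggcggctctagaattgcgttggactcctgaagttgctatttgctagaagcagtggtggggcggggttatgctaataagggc
Isg15: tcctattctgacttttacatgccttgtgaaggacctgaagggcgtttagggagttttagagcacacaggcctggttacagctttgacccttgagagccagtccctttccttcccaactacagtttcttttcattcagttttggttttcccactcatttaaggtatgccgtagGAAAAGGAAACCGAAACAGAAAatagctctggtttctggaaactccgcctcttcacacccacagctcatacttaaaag
In Ifit1 and Ifit3 the first capital run is the Blimp-1-like form on the opposite strand, and the second is an ISRE core with other middle letters. The window of Slfn1 and that of Samd9l held none of the 3 motifs.

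**Figure D1:**
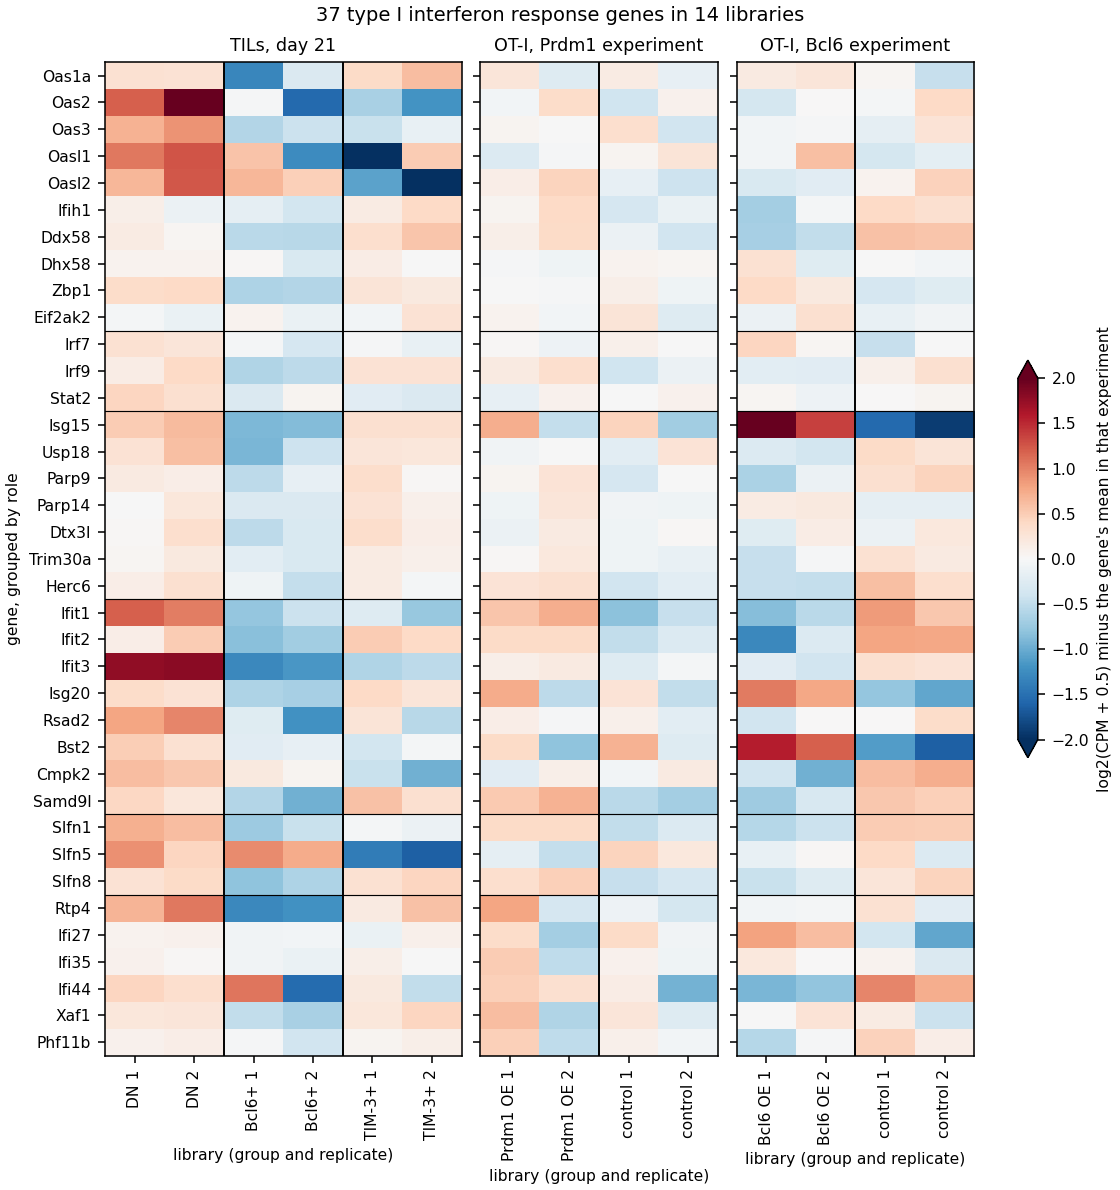
Levels of the 37 analysed members (rows, grouped by role) in the 14 libraries (columns), as log2(CPM + 0.5) minus the gene's mean within its experiment; red is above and blue below that mean, vertical lines part the groups and horizontal lines the roles. Both Bcl6+ columns are the lowest of the 6 TIL columns for 22 of the 34 tested members, Oas2, which was below the filter, and Ifit3 are the darkest red in DN TILs, and Isg15 and Bst2 are darkest red in Bcl6-overexpressing OT-I cells.

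The sorted TILs were compared to ask whether the DN population was the peak of the response. Against Bcl6+ TILs it was higher for 21 of 34 tested members and lower for 0, where 7.69% of all tested genes were called higher and 6.49% lower (14.2% either way). At an unadjusted p of 0.05 the count of lower members was 0 too, as it was by DESeq2 with adjustment. The median log2 fold change was 0.63 over the members and -0.003 over all genes. Against TIM-3+ TILs, DN cells were higher for 9 members and lower for 1, with 13.2% of all genes called higher and 14.9% lower (28.2% either way), and the medians were 0.05 and 0.01. The share of members called higher over TIM-3+ cells was thus above its background while the median member hardly differed. Both comparisons use the same DN libraries.

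DN TILs were called higher than both other populations for 5 members, Ifit3, Ifit1, Oas3, Slfn1 and Bst2, and lower than both for 0; over all genes these patterns held for 1.36% and 1.18%. By the order of libraries alone, both DN libraries stood above both Bcl6+ libraries for 31 of 34 members and below both for 0, orders that 27.7% and 26.7% of all genes had. Both stood above both TIM-3+ libraries for 15 members (32.8% of all genes) and below both for 3 (32.1%). Both DN libraries were the highest of the 6 for 13 of 34 members (9.09% of all genes) and the lowest for 0 (8.11%), and both Bcl6+ libraries were the lowest of the 6 for 22 of 34 (18.8% of all genes). TIM-3+ libraries were the highest for Ddx58, Ifih1 and Oas1a (24.4% of all genes) and the lowest for Cmpk2, Oasl2 and Slfn5 (23.8%). Low Bcl6+ levels were thus counted for more members than a DN peak, but the background of the DN peak was smaller too (9.09% against 18.8%). The patterns were not separate, and members such as Ifit3 and Slfn1 had both.

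The antiviral effectors held the largest DN peak. Ifit1, Ifit2 and Ifit3, which encode tetratricopeptide proteins that bind viral RNA, are neighbours on chromosome 19 (mm10, GENCODE M21, 34550694 to 34650009, plus strand). Ifit3 (ENSMUSG00000074896) measured 32.6 and 33.1 CPM in DN, 3.46 and 3.79 CPM in Bcl6+ and 5.86 and 6.19 CPM in TIM-3+ TILs. Both DN libraries stood far above the other 4, and the Bcl6+ libraries were lowest. The log2 fold change was 3.18 (SE 0.29, adjusted p = 4.1e-06) over Bcl6+ and 2.45 (SE 0.28, adjusted p = 1.5e-05) over TIM-3+ cells. Ifit1 (ENSMUSG00000034459) measured 36.3 and 32.0 CPM in DN, 8.85 and 11.3 CPM in Bcl6+ and 12.95 and 8.96 CPM in TIM-3+ TILs. The DN libraries were again apart, while Bcl6+ and TIM-3+ libraries overlapped. Its log2 fold change was 1.76 (SE 0.27, adjusted p = 0.00046) over Bcl6+ and 1.64 (SE 0.27, adjusted p = 0.00038) over TIM-3+ cells.

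Ifit2 took another shape than its neighbours. It measured 40.4 and 52.1 CPM in DN, 20.3 and 22.4 CPM in Bcl6+ and 52.1 and 48.2 CPM in TIM-3+ TILs. DN and TIM-3+ libraries overlapped, and both groups stood above Bcl6+ cells. It rose in DN over Bcl6+ cells by a log2 fold change of 1.12 (SE 0.18, adjusted p = 0.00071) and gave -0.12 over TIM-3+ cells (adjusted p = 0.68). Reads of Ifit1 and Ifit3 could be shared with related genes such as Ifit1bl1 and Ifit3b, which was not tested. Ifit3b itself measured 4.85 and 5.79 CPM in DN, 0.473 and 0.972 CPM in Bcl6+ and 0.488 and 1.27 CPM in TIM-3+ TILs. Its DN libraries were highest, as for Ifit3, at lower levels, while its Bcl6+ and TIM-3+ libraries overlapped.

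Bst2, which encodes tetherin, a protein that holds budding virus at the cell surface, measured 85.1 and 75.3 CPM in DN, 51.5 and 53.8 CPM in Bcl6+ and 46.9 and 59.3 CPM in TIM-3+ TILs. Both DN libraries were above the other 4, whose groups overlapped. Its log2 fold changes of 0.61 over Bcl6+ (adjusted p = 0.014) and 0.60 over TIM-3+ cells (adjusted p = 0.0088) were the smallest of the 5, and its place among them was lost with the trend with gene length removed, without Bcl6+ replicate 1, without either DN replicate and without TIM-3+ replicate 1. Rsad2, which encodes the antiviral enzyme viperin, measured 16.7 and 19.2 CPM in DN, 7.95 and 3.79 CPM in Bcl6+ and 11.4 and 6.28 CPM in TIM-3+ TILs. The DN libraries were highest of the 6, yet only the change over Bcl6+ cells passed (1.61, adjusted p = 0.015, against 1.02, adjusted p = 0.072, over TIM-3+ cells).

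Samd9l, which encodes an antiviral restriction factor, measured 102.4 and 90.2 CPM in DN, 50.8 and 39.1 CPM in Bcl6+ and 115.7 and 96.4 CPM in TIM-3+ TILs. It was lowest in Bcl6+ cells, and DN and TIM-3+ libraries overlapped. The change in DN over Bcl6+ cells was 1.10 (SE 0.15, adjusted p = 0.0002). Isg20, an exonuclease of RNA, behaved alike, with 29.6 and 27.9 CPM in DN, 14.6 and 14.2 CPM in Bcl6+ and 30.0 and 26.9 CPM in TIM-3+ TILs. Cmpk2, a mitochondrial nucleotide kinase, measured 32.6 and 30.8 CPM in DN, 24.1 and 21.9 CPM in Bcl6+ and 15.4 and 10.6 CPM in TIM-3+ TILs. Cmpk2 was thus lowest in TIM-3+ cells, over which DN cells were higher by a log2 fold change of 1.29 (SE 0.24, adjusted p = 0.001).

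**Figure D2:**
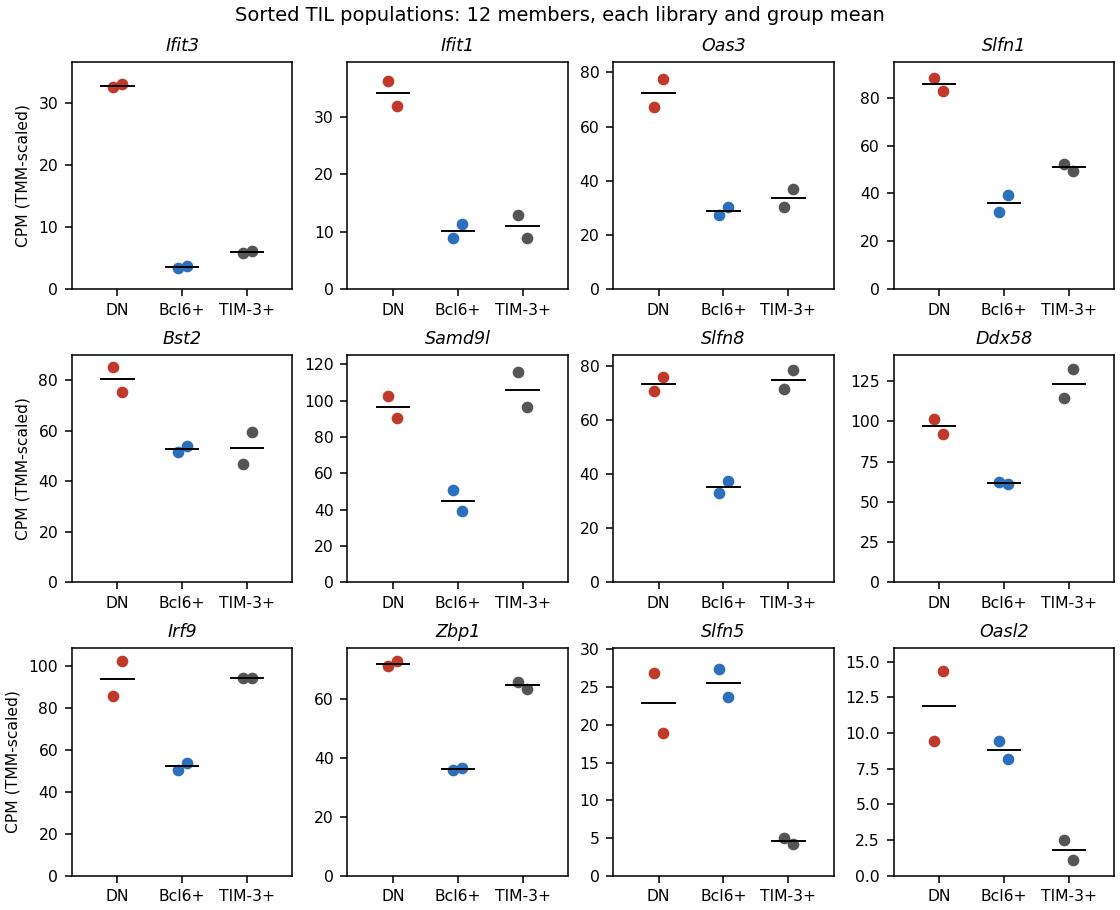
CPM of 12 members in each TIL library (points) with the group mean (lines), for DN, Bcl6+ and TIM-3+ cells; each vertical axis starts at 0. The first 5 panels show the members called higher in DN than in both other populations, the next 5 show low Bcl6+ levels, and Slfn5 and Oasl2 are low in TIM-3+ cells.

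Among the sensors of nucleic acids, Oas3, which makes the second messenger that activates RNase L, peaked in DN cells. Oas3 (ENSMUSG00000032661) measured 67.3 and 77.7 CPM in DN, 27.5 and 30.3 CPM in Bcl6+ and 30.3 and 37.1 CPM in TIM-3+ TILs. Both DN values were above the other 4, and Bcl6+ and TIM-3+ values overlapped. The log2 fold change was 1.33 (SE 0.17, adjusted p = 0.0001) over Bcl6+ and 1.11 (SE 0.17, adjusted p = 0.00022) over TIM-3+ cells. Oas2 and Oasl1 fell below the filter and were not tested. Oas2 measured 2.87 and 6.48 CPM in DN, 0.947 and 0 CPM in Bcl6+ and 0.440 and 0.146 CPM in TIM-3+ TILs. Oasl1 measured 4.05 and 4.72 CPM in DN, 2.75 and 0.416 CPM in Bcl6+ and 0 and 2.63 CPM in TIM-3+ TILs. The DN libraries were the highest for both genes.

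The other sensors did not share that shape. Oasl2, whose product is related to the OAS enzymes, measured 9.42 and 14.4 CPM in DN, 9.47 and 8.19 CPM in Bcl6+ and 2.49 and 1.07 CPM in TIM-3+ TILs. DN and Bcl6+ libraries overlapped above TIM-3+ cells, and the change in DN over TIM-3+ cells was 2.73 (SE 0.46, adjusted p = 0.00051). Ddx58, which encodes the RNA sensor RIG-I, measured 101.3 and 92.4 CPM in DN, 62.1 and 61.3 CPM in Bcl6+ and 114.3 and 132.5 CPM in TIM-3+ TILs. It was the member called lower in DN than in TIM-3+ cells (-0.35, SE 0.12, adjusted p = 0.043), and the call was lost in 9 of 17 other settings. Zbp1, a sensor of left-handed nucleic acid that can trigger cell death, measured 71.1 and 72.6 CPM in DN, 35.6 and 36.3 CPM in Bcl6+ and 65.7 and 63.2 CPM in TIM-3+ TILs. DN libraries were highest, with a change of 0.997 over Bcl6+ cells (adjusted p = 0.00018) and 0.16 over TIM-3+ cells (adjusted p = 0.43).

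Oas1a measured 15.0 and 15.0 CPM in DN, 4.59 and 9.85 CPM in Bcl6+ and 15.8 and 18.8 CPM in TIM-3+ TILs. The spread between the Bcl6+ libraries was wide, and the change in DN over Bcl6+ cells did not pass (1.05, adjusted p = 0.063). Ifih1, the RNA sensor MDA5, measured 50.9 and 43.4 CPM in DN, 41.6 and 36.4 CPM in Bcl6+ and 52.9 and 62.0 CPM in TIM-3+ TILs, with neither DN contrast past the test. For Dhx58, the sensor LGP2, and Eif2ak2, the kinase PKR that halts translation, no TIL contrast passed, and group means lay between 28.4 and 32.9 CPM and between 26.6 and 30.9 CPM.

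The transcription factors of the response differed from one another. Irf9, the DNA-binding subunit of the ISRE complex, measured 85.7 and 102.4 CPM in DN, 50.7 and 53.8 CPM in Bcl6+ and 94.5 and 94.4 CPM in TIM-3+ TILs. It was lower in Bcl6+ cells, with a DN over Bcl6+ change of 0.85 (SE 0.13, adjusted p = 0.00045). Stat2, its partner, measured 50.6 and 46.5 CPM in DN, 30.4 and 38.8 CPM in Bcl6+ and 31.7 and 30.4 CPM in TIM-3+ TILs. DN libraries were highest, and the change passed over TIM-3+ cells (0.65, adjusted p = 0.014) and not over Bcl6+ cells (0.49, adjusted p = 0.088). Irf7, which amplifies interferon production, measured 65.2 and 62.6 CPM in DN, 51.6 and 41.6 CPM in Bcl6+ and 52.1 and 47.6 CPM in TIM-3+ TILs. Its DN libraries were highest as well, with adjusted p of 0.068 over Bcl6+ and 0.1 over TIM-3+ cells.

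The ubiquitin-like, ubiquitin and ADP-ribose genes gave 6 of 7 members higher in DN than in Bcl6+ cells and 0 of 7 called in either direction between DN and TIM-3+ cells, where unadjusted p values ran from 0.35 to 0.9. Isg15, a ubiquitin-like modifier of proteins, measured 8.99 and 9.86 CPM in DN, 3.08 and 3.19 CPM in Bcl6+ and 7.86 and 7.84 CPM in TIM-3+ TILs. Bcl6+ libraries were low and the other groups close, with a DN over Bcl6+ change of 1.59 (SE 0.37, adjusted p = 0.011). Usp18, which removes ISG15 and restrains the receptor, measured 27.2 and 33.9 CPM in DN, 11.5 and 16.5 CPM in Bcl6+ and 26.2 and 26.0 CPM in TIM-3+ TILs. Its change over Bcl6+ cells was 1.13 (SE 0.24, adjusted p = 0.0051). Dtx3l and Parp9, partners in a ubiquitin ligase complex, Parp14, another ADP-ribose enzyme, and Trim30a, a TRIM family regulator of innate signals, rose by 0.38 to 0.61 over Bcl6+ cells. Dtx3l and Parp9 overlap on opposite strands of chromosome 16, and the labels do not say whether strand was used in counting. Herc6, the mouse ligase for ISG15, had means of 33.4 CPM in DN, 23.5 CPM in Bcl6+ and 29.9 CPM in TIM-3+ TILs, and no contrast passed.

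The Schlafen genes Slfn1, Slfn5 and Slfn8, whose family restrains growth and viral replication, lie together on chromosome 11 (82951349 to 83122670). Slfn1 (ENSMUSG00000078763), linked to T cell quiescence, measured 88.1 and 82.9 CPM in DN, 32.4 and 39.5 CPM in Bcl6+ and 52.4 and 49.4 CPM in TIM-3+ TILs. No groups overlapped, and DN cells were higher by a log2 fold change of 1.25 (SE 0.15, adjusted p = 5.4e-05) over Bcl6+ and 0.75 (SE 0.15, adjusted p = 0.0016) over TIM-3+ cells. Slfn8 measured 71.0 and 76.0 CPM in DN, 33.0 and 37.5 CPM in Bcl6+ and 71.5 and 78.6 CPM in TIM-3+ TILs. It was low in Bcl6+ cells, with a change of 1.06 in DN over them (SE 0.14, adjusted p = 0.00015). Slfn5 measured 26.9 and 19.0 CPM in DN, 27.4 and 23.7 CPM in Bcl6+ and 4.98 and 4.14 CPM in TIM-3+ TILs. Its order was the opposite, low in TIM-3+ cells, with a DN over TIM-3+ change of 2.33 (SE 0.28, adjusted p = 2.7e-05). Slfn8 may share reads with its near copy Slfn9.

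Of the members without a single shared role, Rtp4, a receptor transporter with antiviral activity, measured 18.5 and 24.0 CPM in DN, 4.31 and 4.63 CPM in Bcl6+ and 12.9 and 17.1 CPM in TIM-3+ TILs. The change was 2.25 over Bcl6+ cells (SE 0.30, adjusted p = 0.00017) and 0.50 over TIM-3+ cells (adjusted p = 0.23). Xaf1, a proapoptotic gene, was 0.82 higher in DN than in Bcl6+ cells (adjusted p = 0.018), with means of 27.0 CPM in DN, 15.3 CPM in Bcl6+ and 29.0 CPM in TIM-3+ TILs. Ifi27, Ifi35 and Phf11b passed in no TIL contrast. Ifi27 was among the members least different between groups, at means of 127.6 CPM in DN, 115.7 CPM in Bcl6+ and 120.1 CPM in TIM-3+ TILs. Ifi44 was below the filter, with at most 2.56 CPM in a library.

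**Figure D3:**
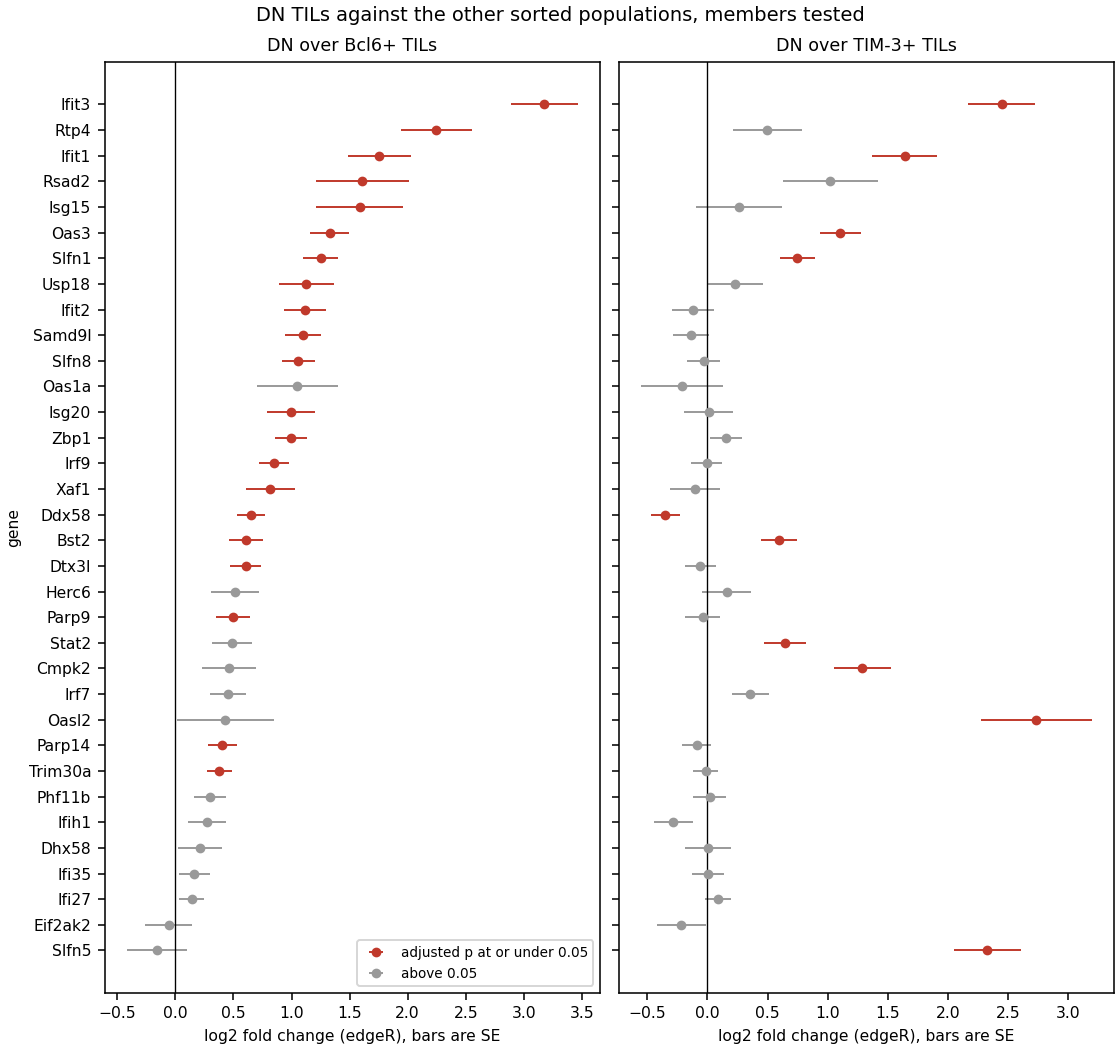
Log2 fold change (points) and SE (bars) of the 34 tested members in DN over Bcl6+ TILs (left) and DN over TIM-3+ TILs (right), red where the adjusted p was at or under 0.05. Points lie to the right of 0 for most members on the left. On the right many scatter about 0, apart from the 9 higher members, Ddx58 and members not called such as Rsad2 (1.02) and Rtp4 (0.50).

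Bcl6+ cells were also set against TIM-3+ cells, the comparison of groups other than DN, although the DN libraries shared its model. Bcl6+ TILs were lower for 18 of 34 members and higher for 3, with 19.6% of all genes called lower and 19.1% higher. The median log2 fold change was -0.52 over members and 0.01 over all genes. With only the 4 libraries compared in the model, 18 of 33 members were lower and 2 higher, where 1773 of 9717 genes were lower and 1606 higher. With library totals in place of TMM, 13 members were lower and 3 higher, where 1283 of all 9748 genes were lower and 2896 higher, and the median of all genes moved to 0.19. The lower members spanned the sensors Ddx58, Zbp1, Ifih1 and Oas1a, the factor Irf9, 6 of 7 ubiquitin and ADP-ribose genes, and Ifit2, Isg20, Samd9l, Slfn1, Slfn8, Rtp4 and Xaf1. The changes ran to -1.75 for Rtp4 (SE 0.30, adjusted p = 0.00039) and -1.24 for Samd9l (SE 0.15, adjusted p = 2e-05). Both Bcl6+ libraries stood below both TIM-3+ libraries for 22 members (34.0% of all genes) and above both for 3 (34.8%), and 38.6% of all genes were called in either direction. The 3 higher members were Slfn5 (2.48, SE 0.28, adjusted p = 8.4e-06), Oasl2 (2.31, SE 0.46, adjusted p = 0.0012) and Cmpk2 (0.83, SE 0.24, adjusted p = 0.013). Ifit3 gave -0.73 with an adjusted p of 0.054.

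Other genes of the interferon pathway were read from lists. Of 20 interferon genes, Ifng alone was tested; this type II interferon measured 219.8 and 209.7 CPM in DN, 73.3 and 69.8 CPM in Bcl6+ and 712.3 and 706.7 CPM in TIM-3+ TILs. Its order, lowest in Bcl6+ and highest in TIM-3+ cells, was shared without overlap of libraries by Ddx58, Ifih1 and Oas1a. Group means had the same order for further members, among them Ifit2, Samd9l, Slfn8, Xaf1, Parp9, Parp14, Dtx3l, Trim30a and Irf9. In those the DN and TIM-3+ libraries overlapped, and none was called between DN and TIM-3+ cells. Their log2 fold changes in DN over TIM-3+ cells ran from -0.14 (Samd9l) to -0.006 (Irf9), against -1.72 for Ifng. The 13 members highest in DN cells could not share the order of Ifng, because they were picked for being highest in DN. In the receptor and signal list, Ifnar1, Jak1 and Stat3 were lower in DN than in Bcl6+ cells. Shares of genes called over the whole table were those given above, 7.69% and 6.49% over Bcl6+ and 13.2% and 14.9% over TIM-3+ cells. Of 11 tested interferon-gamma targets, DN cells were higher than Bcl6+ cells for 7 and lower for 1, and higher than TIM-3+ cells for 1 and lower for 3. Cxcl10, a chemokine, was the target higher than in TIM-3+ cells, at 31.1 and 25.2 CPM in DN, 14.1 and 18.1 CPM in Bcl6+ and 5.33 and 6.19 CPM in TIM-3+ TILs. Of 38 tested further interferon-stimulated genes, DN cells were higher than Bcl6+ cells for 17 and lower for 1, and higher than TIM-3+ cells for 5 and lower for 2. The count of 5 over TIM-3+ cells is no larger a share than that of all genes. Ifi208, of the cytosolic DNA-sensor family, measured 89.0 and 82.7 CPM in DN, 15.9 and 12.4 CPM in Bcl6+ and 65.1 and 65.0 CPM in TIM-3+ TILs (2.60 over Bcl6+, adjusted p = 1.3e-07). Ly6e, an entry restriction factor, measured 1886 and 1885 CPM in DN, 1831 and 1808 CPM in Bcl6+ and 1044 and 1014 CPM in TIM-3+ TILs. Socs3, a feedback inhibitor, was higher in DN than in both others (0.38, adjusted p = 0.02, and 0.97, adjusted p = 7.7e-06).

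Markers of other cells moved with the TIL groups. Plasmacytoid dendritic cells, the main producers of type I interferon, express Bst2 themselves. Of their 5 listed markers, Siglech measured 21.1 and 18.1 CPM in DN, 2.98 and 3.84 CPM in Bcl6+ and 0.0489 and 2.53 CPM in TIM-3+ TILs. Siglech passed against both (2.52, adjusted p = 0.032, over Bcl6+ and 3.92, adjusted p = 0.0019, over TIM-3+ cells). Spib measured 15.4 and 15.1 CPM in DN, 4.83 and 4.67 CPM in Bcl6+ and 0 and 1.02 CPM in TIM-3+ TILs. Klk1 and Cox6a2 were also highest in DN libraries, and Pacsin1 was highest in Bcl6+ libraries. The list summed to 96.9 and 97.2 CPM in DN, 132.6 and 123.0 CPM in Bcl6+ and 66.4 and 69.3 CPM in TIM-3+ TILs, with Klk1 at 0 in TIM-3+ cells. Most of that sum was Pacsin1, and the other 4 markers were each highest in DN libraries. Over Bcl6+ cells, DN cells were called higher for 1 of the 5 markers and lower for 1, and over TIM-3+ cells higher for 4. The erythroid markers were highest in DN too, summing to 61.3 and 58.4 CPM in DN, 33.7 and 37.5 CPM in Bcl6+ and 16.5 and 23.2 CPM in TIM-3+ TILs. The CD8 T cell markers summed to 7097 and 7019 CPM in DN, 6293 and 6258 CPM in Bcl6+ and 9634 and 9481 CPM in TIM-3+ TILs. Their sum was lowest in Bcl6+ cells, as were 22 of 34 members, but the 7 markers did not all move together. DN cells were called higher than Bcl6+ cells for 4 of them (7.69% of all genes). Bcl6+ cells were called lower than TIM-3+ cells for 6 (19.6% of all genes) and higher for Cd2 (19.1%). The 11 macrophage and monocyte markers summed to 150.0 and 151.9 CPM in DN, 272.9 and 240.5 CPM in Bcl6+ and 71.9 and 55.3 CPM in TIM-3+ TILs. The part of such cells in the members' levels was not tested.

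In the OT-I experiment on Prdm1, the question was whether more Prdm1 changed these genes. Of 37 tested members, 2 were higher in Prdm1-overexpressing cells and 0 lower, with 1.16% of all genes called higher and 0.201% lower (1.36% either way). At an unadjusted p of 0.05, Slfn5 alone was lower, and DESeq2 called 0 members lower. The median log2 fold change was 0.17 over members and 0.02 over all genes. Both overexpressing libraries stood above both controls for 14 members (29.3% of all genes) and below both for Dhx58, Oasl1 and Slfn5 (21.7% of all genes). Both calls were lost without either control replicate, without a filter on low values and with limma on log2(FPKM + 0.1).

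The called members were antiviral effectors. Samd9l measured 315.0 and 354.6 CPM in Prdm1-overexpressing cells, against 149.6 and 136.6 CPM in control cells. The overexpressing libraries were the higher pair by a wide gap, with a log2 fold change of 1.23 (SE 0.16, adjusted p = 0.024). Ifit1 measured 316.8 and 356.2 CPM in Prdm1-overexpressing cells, against 120.8 and 155.4 CPM in control cells. Its change was 1.29 (SE 0.18, adjusted p = 0.028). Ifit1 has the Blimp-1-like letters in the sequence above, and Samd9l has none of the motifs in its window. Ifit3, the other member with those letters, measured 176.0 and 184.5 CPM in Prdm1-overexpressing cells, against 135.1 and 158.1 CPM in control cells (0.30, adjusted p = 0.37).

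Further members stood just above the threshold of the test. Slfn8 measured 166.5 and 182.9 CPM in Prdm1-overexpressing cells, against 95.2 and 104.2 CPM in control cells (0.81, SE 0.16, adjusted p = 0.069). Slfn1 measured 335.2 and 336.9 CPM in Prdm1-overexpressing cells, against 184.0 and 212.2 CPM in control cells (0.76, SE 0.16, adjusted p = 0.072). Ifit2 measured 219.0 and 218.5 CPM in Prdm1-overexpressing cells, against 119.4 and 138.0 CPM in control cells (0.77, SE 0.16, adjusted p = 0.074). In each of these the groups did not overlap although the test was not passed. With the trend with gene length removed, Slfn8 (adjusted p = 0.035), Slfn1 (adjusted p = 0.044) and Ifit2 (adjusted p = 0.04) passed. The count of higher members, 2 in the main test, was 5 in that setting. It was 5 by DESeq2 and 8 with a term for replicate number in the model. Herc6 measured 85.7 and 88.6 CPM in Prdm1-overexpressing cells, against 54.3 and 61.0 CPM in control cells (0.60, SE 0.18, adjusted p = 0.15). Slfn5 went the other way, at 16.0 and 12.9 CPM in Prdm1-overexpressing cells, against 25.1 and 21.0 CPM in control cells (-0.67, SE 0.28, adjusted p = 0.25).

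The short members Bst2 and Isg15 had wide spreads within groups. Bst2 measured 44.7 and 19.3 CPM in Prdm1-overexpressing cells, against 55.7 and 28.5 CPM in control cells. Isg15 measured 9.76 and 3.996 CPM in Prdm1-overexpressing cells, against 7.998 and 3.33 CPM in control cells. In both genes replicate 1 was the higher library of each group, and the groups overlapped. Among pathway genes, 0 of 12 tested interferon-gamma targets were called at an adjusted p of 0.05. Of 43 tested further interferon-stimulated genes, Ifi214 was higher (0.87, adjusted p = 0.048) and Slfn4 lower (-2.83, adjusted p = 0.025), and Socs3 was lower (-1.11, adjusted p = 0.046). Over all tested genes, 1.16% were called higher and 0.201% lower. The macrophage and monocyte markers summed to 312.9 and 181.2 CPM in Prdm1-overexpressing cells and 493.3 and 440.0 CPM in control cells. The neutrophil markers summed to 41.2 and 55.3 CPM in Prdm1-overexpressing cells and 3.39 and 3.67 CPM in control cells. Of these 6 markers only 1, Mmp9, was tested, and it was higher (log2 fold change 7.68), so the sum does not describe the list as a whole. The part of such cells was not tested.

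In the OT-I experiment on Bcl6, members went in both directions. Of 34 tested members, 5 were higher in Bcl6-overexpressing cells and 15 lower, with 25.4% of all genes called higher and 23.4% lower. The median log2 fold change was -0.14 over members and 0.002 over all genes. With so many genes called, 48.8% in either direction, the count of higher members was below the background share and the count of lower ones above it.

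The lower members included effectors, sensors, ubiquitin enzymes and Schlafens. Ifit1 measured 21.3 and 26.8 CPM in Bcl6-overexpressing cells, against 71.2 and 56.7 CPM in control cells. Groups were well apart, and the log2 fold change was -1.41 (SE 0.22, adjusted p = 2.5e-05). Ddx58 measured 34.8 and 39.2 CPM in Bcl6-overexpressing cells, against 83.3 and 81.7 CPM in control cells. Its change was -1.16 (SE 0.19, adjusted p = 5.5e-05). Ifit2, at 13.2 and 27.1 CPM in Bcl6-overexpressing cells and 57.5 and 56.9 CPM in control cells, had the largest fall among members (-1.50, SE 0.27, adjusted p = 0.00011). Further lower members were Cmpk2 (-1.34), Samd9l (-1.02), Slfn1 (-0.99), Herc6 (-0.96), Parp9 (-0.74), Ifih1 (-0.70), Slfn8 (-0.70), Usp18 (-0.65), Ifit3 (-0.60), Phf11b (-0.57), Trim30a (-0.47) and Irf9 (-0.43). All 15 had both overexpressing libraries below both controls, an order that 38.0% of all genes had.

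The higher members were few and mostly short genes. Isg15 (ENSMUSG00000035692, chromosome 4, 156199424 to 156200818, minus strand) measured 34.1 and 20.6 CPM in Bcl6-overexpressing cells, against 2.26 and 1.69 CPM in control cells. Its log2 fold change was 3.79 (SE 0.35, adjusted p = 2.1e-08). Bst2 (ENSMUSG00000046718, chromosome 8, 71534255 to 71537456, minus strand) measured 202.3 and 155.0 CPM in Bcl6-overexpressing cells, against 30.8 and 21.5 CPM in control cells. Its change was 2.77 (SE 0.22, adjusted p = 1.3e-09). Isg20 measured 45.8 and 38.1 CPM in Bcl6-overexpressing cells, against 12.8 and 10.5 CPM in control cells (1.85, SE 0.24, adjusted p = 3.1e-06). Ifi27, which encodes a small mitochondrial protein, measured 155.1 and 136.1 CPM in Bcl6-overexpressing cells, against 68.8 and 43.1 CPM in control cells (1.38, SE 0.21, adjusted p = 1.9e-05). Zbp1 measured 102.4 and 88.5 CPM in Bcl6-overexpressing cells, against 61.0 and 65.3 CPM in control cells (0.60, SE 0.19, adjusted p = 0.012). In all 5 the groups did not overlap, and both overexpressing libraries stood above both controls for 9 members in all (37.7% of all genes).

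Gene length moved with these changes. Among all tested genes, the shortest 1934 had a median log2 fold change of 0.69 in Bcl6-overexpressing over control cells, while the next class of equal size had -0.01. Isg15 has 756 exon bases, Bst2 903, Ifi27 1467 and Isg20 1860, and all 4 fell in the shortest class. With the trend of counts with gene length removed, an alternative chosen after seeing the data, the change was 1.06 for Isg15 (adjusted p = 0.0075), 0.64 for Bst2 (adjusted p = 0.004), 1.31 for Isg20 (adjusted p = 5.6e-05) and 0.39 for Ifi27 (adjusted p = 0.076). Zbp1, with 3529 exon bases, gave 0.64 (adjusted p = 0.004). The change of the short lower members was then -1.46 for Slfn1, -1.20 for Ifit3 and -1.98 for Phf11b. By that setting 6 members were higher and 14 lower, where 2370 of all 9669 genes were higher and 2416 lower. Irf7 (0.54, adjusted p = 0.021) and Parp14 (0.51, adjusted p = 0.017) joined the higher members and Ifi27 left them. Ifi35 (-0.43, adjusted p = 0.038) joined the lower members, and Irf9 and Trim30a left them. The cause of the length trend was not tested.

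**Figure D4:**
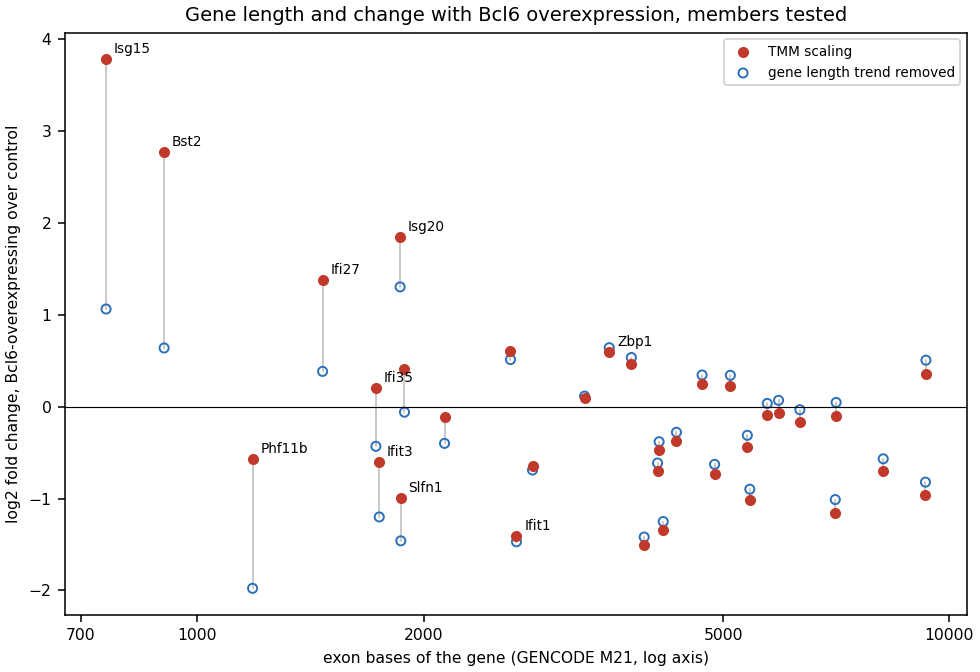
Log2 fold change in Bcl6-overexpressing over control OT-I cells of the 34 tested members against exon bases of the gene (log axis), with TMM scaling (filled) and with the length trend removed (open), a line joining the values of a gene. Isg15 and Bst2, the shortest genes, move from 3.79 and 2.77 toward 1.06 and 0.64, and the points of long genes lie close together.

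Markers of other cells also moved with the groups of this experiment. The macrophage and monocyte markers summed to 649.9 and 555.9 CPM in Bcl6-overexpressing cells and 155.8 and 152.5 CPM in control cells, and all 8 tested of 11 were higher. The neutrophil markers summed to 31.5 and 30.4 CPM in Bcl6-overexpressing cells and 5.31 and 2.54 CPM in control cells, with S100a8 at 0 in control cells. The plasmacytoid dendritic cell markers summed to 77.2 and 55.8 CPM in Bcl6-overexpressing cells and 32.6 and 30.3 CPM in control cells, with Spib at 0 in overexpressing and Cox6a2 at 0 in control cells. The erythroid markers summed to 14.8 and 12.9 CPM in Bcl6-overexpressing cells and 0.984 and 1.18 CPM in control cells, with Hba-a1 and Hbb-bs at 0 in control cells. Their part in the members' levels was not tested. Of the pathway lists, the receptor gene Ifnar1 (-0.55, adjusted p = 0.0092) and the kinase gene Jak1 were lower and Ifnar2 (0.55, adjusted p = 0.019) higher. The feedback inhibitor Socs1 was higher, at 115.6 and 96.8 CPM in Bcl6-overexpressing cells, against 36.7 and 28.5 CPM in control cells (1.70, adjusted p = 7.7e-07). Of 12 tested interferon-gamma targets, the GTPase genes Igtp, Irgm1, Irgm2, Iigp1 and Ifi47 were lower, and the immunoproteasome genes Psmb8 and Psmb9 and the chemokine Cxcl10 were higher. Of 40 tested further interferon-stimulated genes, 15 were lower and 5 higher. Beside these list and marker counts, 23.4% of all tested genes were called lower and 25.4% higher. Ifitm3, an entry restriction factor with a short transcript, was among the higher, at 36.6 and 27.0 CPM in Bcl6-overexpressing cells, against 2.51 and 2.30 CPM in control cells (3.72, adjusted p = 4.2e-09). Ifit1bl1 was among the lower, at 22.1 and 28.6 CPM in Bcl6-overexpressing cells, against 107.5 and 100.7 CPM in control cells (-2.04, adjusted p = 5.7e-08).

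The 2 OT-I experiments have separate controls, so their members can be set side by side. Of 34 members tested in both, 12 had both Prdm1-overexpressing libraries above both controls, and all 12 were among the 15 called lower with Bcl6 overexpression, which is 100% of those 12 and 80% of the 15. Over all 9345 genes tested in both, 2613 stood above both controls with Prdm1 and 2259 were called lower with Bcl6. The same overlap was 50.3% of the genes above in Prdm1-overexpressing cells and 58.2% of those lower with Bcl6. With the length trend removed, Irf9 (-0.31, adjusted p = 0.12) and Trim30a (-0.38, adjusted p = 0.077) were no longer called lower with Bcl6, and 10 of the 12 were. The overlap over all genes was not computed in that setting. The 12 members were Ifit1, Ifit2, Ifit3, Samd9l, Slfn1, Slfn8, Ddx58, Ifih1, Herc6, Parp9, Trim30a and Irf9. Of the 5 members called higher with Bcl6, 0 had both Prdm1-overexpressing libraries above both controls and 0 had both below. Over all genes called higher with Bcl6, these shares were 9.65% and 34.8%. Most of the 12 changes with Prdm1 did not pass the test by themselves, so the overlap describes order of libraries on that side.

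**Figure D5:**
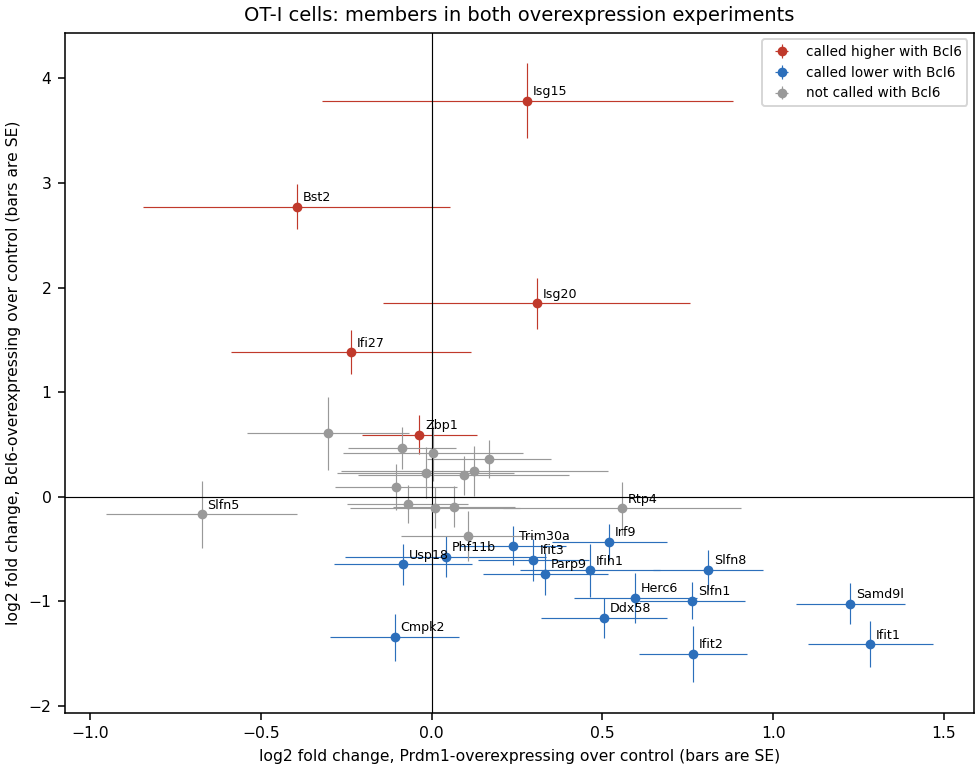
Log2 fold changes with SE (bars) of the 34 members tested in both OT-I experiments: Prdm1-overexpressing over control on the horizontal axis and Bcl6-overexpressing over control on the vertical axis, coloured by the call with Bcl6. Members lower with Bcl6 lie mostly at right below the line at 0, led by Ifit1 at 1.29 and -1.41, while Isg15 and Bst2 stand at the top.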

How the data were processed

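RNA-seq counts and FPKM of 14 libraries were used. Per the file headers, the authors deposited for each gene and library a raw read count and its FPKM. Tools named for TILs in the submitters' processing notes are DESeq2, edgeR, featureCounts, Subread and Bowtie2. For OT-I cells the notes name RSEM, DESeq2, HISAT2 and featureCounts, and build mm10 is given for all. Versions and strand use are not stated. In the TIL and Bcl6 tables the smallest count summed over libraries was 20.

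The deposited counts were tested with edgeR 4.0.16 (quasi-likelihood, TMM, two-sided) in R 4.3.3 on genes averaging 1 FPKM or more, with Benjamini-Hochberg adjustment over all of them. All 6 TIL libraries entered 1 model, while the OT-I experiments were modelled separately. The tables were normalized separately, so no level was tested across them. SE was the log2 fold change's size divided by the root of the F statistic. The test was tried on simulated counts. Alternatives were DESeq2 1.42.0, limma 3.58.1 on FPKM or TPM, other scalings and filters, a replicate block, left-out libraries and a smooth correction for gene length. Positions come from GENCODE M21. The members and lists were chosen with earlier results of these data known. Values in every library are given for the 12 members with the smallest adjusted p in either DN contrast, the 6 smallest in each OT-I contrast and members that went against the majority. Other members shown with values, and pathway genes, were chosen after their values were seen. Some pathway genes are not reported here.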

Additional observations from a re-analysis of the deposited data

How the results depend on the processing

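Leaving out 1 library at a time gave 12 to 21 members higher in DN than in Bcl6+ TILs (13 without DN replicate 1, 12 without DN replicate 2), 0 to 1 lower in DN than in TIM-3+ TILs, 0 to 5 higher with Prdm1 overexpression (0 without either control replicate) and 9 to 15 lower with Bcl6 overexpression (9 without control replicate 1). With limma on log2(TPM + 1), 15 members were higher in DN than in TIM-3+ TILs and 9 higher in DN than in both. Ddx58, the 1 member lower in DN than in TIM-3+ TILs, was lost (0 members) with library totals, a mean of at least 5 FPKM, limma on log2(FPKM + 0.1) or log2(TPM + 1), the replicate block and the length trend removed. With a mean of at least 5 FPKM, 1 member was higher in Bcl6+ than in TIM-3+ TILs. With Prdm1 overexpression 5 members were higher by DESeq2, 5 with the length trend removed, 0 without a filter and 0 with limma on log2(FPKM + 0.1).

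Library totals moved the median log2 fold change of all genes to 0.18 in DN over TIM-3+ TILs, where 2173 genes were higher and 869 lower against 1291 and 1454 with TMM. TPM moved that median to 0.26 in Bcl6+ over TIM-3+ TILs and to -0.32 with Bcl6 overexpression, where 1741 genes were higher and 3784 lower against 2459 and 2261 with TMM. Ifi35 with Bcl6 overexpression changed sign to -0.43 (adjusted p = 0.038) with the length trend removed. Same-numbered libraries deviated together with correlations of 0.015 to 0.036 among TILs, 0.28 for Prdm1 and -0.055 for Bcl6, each over 2 numbers. The labels do not say that a number marks a shared animal, so no pairing was assumed, and whether the Prdm1 libraries are paired was not settled. With the replicate block, 8 members and 1659 genes in all were called in the Prdm1 experiment, against 2 and 135 without it, and in the other comparisons member counts were 21 and 0, 10 and 0, 3 and 18, and 5 and 14 higher and lower. Calls over all genes in the Prdm1 experiment numbered 586 by DESeq2, 275 with its size factors, 292 with library totals, 609 with TPM, 482 with the length trend removed, 44 without a filter and 3 to 643 with 1 library left out. Leaving out 1 DN library gave 735 or 766 calls over all genes in DN over Bcl6+ TILs, against 1383. Low levels limit Oas2, Oasl1 and Ifi44 among TILs and Isg15 in OT-I cells.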
